A study of Mus musculus with 63 samples.

Results

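*Deptor* and 8 further genes of the mTOR complexes were followed in small intestinal tumours of the mouse. The 9 genes were *Deptor*, *Mtor*, *Rptor*, *Rictor*, *Mlst8*, *Akt1s1*, *Tsc1*, *Tsc2* and *Rheb*, found by symbol among the 24766 genes of the expression table. All 9 exceeded the filter on low values in every comparison. They were chosen by the measured difference of *Deptor* between major and minor clones, and the other 8 for their place in the same complexes, so the clone differences of the 9 genes are given as a description and carry no test.

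The kinase mTOR works in a pair of complexes. The first holds the scaffold RAPTOR (*Rptor*) and the inhibitor PRAS40 (*Akt1s1*) and drives protein and lipid synthesis while holding back autophagy. The second is built around RICTOR and phosphorylates AKT and SGK1. MLST8 belongs to both, and DEPTOR binds mTOR in both and restrains the kinase. RHEB, a small GTPase on the lysosome, switches on the first complex, and the TSC1 and TSC2 proteins switch RHEB off. In the intestine, the first complex is known for its part in the growth of crypts and of *Apc*-deficient tumours. The libraries measured transcripts, and neither the assembly of the complexes nor the activity of the kinase.

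The tumours came from 2 C57BL/6 mice, 1 female and 1 male, of the genotype given as Apchet. Both carried *Villin*-creERT2, a tamoxifen-inducible Cre that is active in the intestinal epithelium, 1 floxed *Apc* allele and the Confetti reporter, which labels scattered crypts with different fluorescent proteins. Both received 4 mg tamoxifen when more than 8 weeks old, and the mutagen ENU at 200 mg per kg 10 days later, so that no group was free of *Apc* loss, tamoxifen or ENU. In all, 20 heterotypic tumours, 10 per mouse, were cut along the colours into a larger (major, n = 20) and a smaller (minor, n = 20) clone, and 23 tumours (10 from the female mouse, 13 from the male) were sequenced undivided. No clone class is attached to the undivided tumours by their labels. The paper compared its clones with a group that it regarded as monoclonal, counting 20 over both mice. The undivided tumours are taken to hold that group, and are not read as mixtures of major and minor clones. All 23 were kept, and those numbered 1 to 10 in each mouse, 20 in number, served as an alternative. Each piece kept its stroma and immune cells along with the epithelium, and in such bulk samples fewer cells of a type and less RNA per cell cannot be told apart. Because every tumour came from 1 of 2 animals, p-values measured the spread between tumours and not between mice, and mouse and sex cannot be told apart.

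The table holds normalised read counts, with sums of 26140227 to 45909885 per library. A single read was worth 0.584 to 2.34 normalised counts, which put the counting error of any value of the 9 genes between 1.71% and 8.95% of that value. Epithelial markers were high in all 3 groups, with mean log2 levels over 8 genes of 14.0 to 14.8 (major clones), 13.8 to 14.7 (minor clones) and 13.7 to 14.96 (undivided). The share of the ribosomal RNA *Rn18s* differed between groups, with a median of 1.24% for major clones, 6.19% for minor clones and 3.11% where tumours were undivided.

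All 9 genes were well expressed, and *Deptor* had the largest coefficient of variation of the 9 in each group. *Deptor*, on the plus strand of GRCm39 at chr15:54975710-55122667, overlaps no other gene annotated as protein-coding. Its normalised counts ran from 525 through a median of 1203 to 2081 in major clones. They ran from 298 through 925 to 1913 in minor clones, and from 449 through 1028 to 1795 in undivided tumours. The 3 ranges overlapped over most of their length, and the coefficient of variation was 34.3% for major clones, 39.3% for minor clones and 35.9% for undivided tumours. The nearest members were *Tsc2* at 23.2% and 25.8% in the clones and *Mlst8* at 34.7% in undivided tumours.

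*Mtor*, which encodes the kinase (chr4:148533015-148642141, plus strand), had a median of 1111 over major clones, 1163 over minor clones and 1218 over undivided tumours. *Rptor* (chr11:119493731-119790402, plus strand), the defining scaffold of the first complex, had medians of 1111, 965 and 973 in the same order. *Rictor* (chr15:6737860-6829882, plus strand), the defining subunit of the second complex, had medians of 538, 509 and 470. *Rictor* was the lower of the scaffold genes in every library of every group when counts were divided by union exon length. *Mlst8*, the shared subunit (chr17:24692524-24698057, minus strand), had medians of 560, 576 and 568.3, and its highest library was an undivided tumour at 1389. *Akt1s1*, for PRAS40 (chr7:44498415-44504908, plus strand), had medians of 1993, 1922 and 1986 and varied least, by 9.40% to 13.5%.

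Of the upstream switch, *Rheb* (chr5:25007821-25047622, minus strand) had a median of 1486 over major clones, 1672 over minor clones and 1771 over undivided tumours. *Tsc1* (chr2:28531061-28581179, plus strand) had medians of 369, 360 and 332. *Tsc2* (chr17:24814783-24852192, minus strand) had medians of 1367, 1228 and 1306. *Mtor*, *Mlst8*, *Akt1s1* and *Tsc2* overlap protein-coding genes on the other strand (*Angptl7*, *Bricd5*, *Tbc1d17*, and *Nthl1* with *Pkd1*), and the libraries were stranded. *Rptor* overlaps *Gm69672* on its own strand, so reads of the pair may have been shared. Overlap of the members with genes of other types was not examined.

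**Figure D1:**
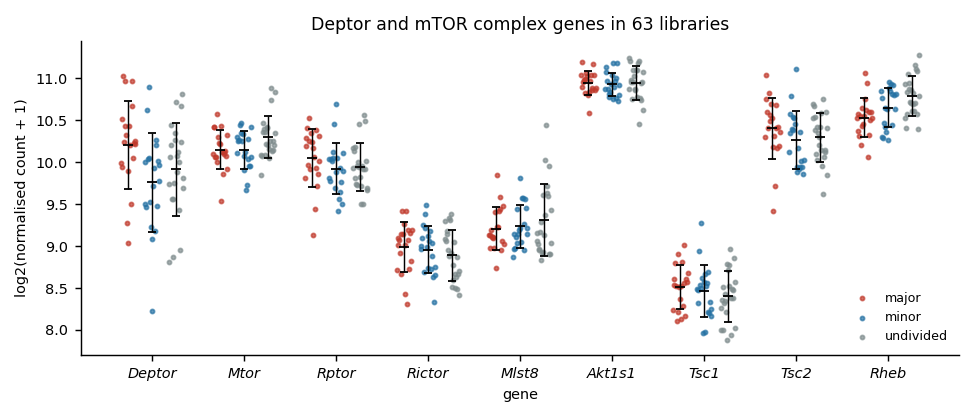
Levels of the 9 genes in 63 libraries, as log2(normalised count + 1). Each point is a library (20 major clones, 20 minor clones, 23 undivided tumours) and the bars give the mean and SD; *Deptor* has the widest spread and the 3 groups overlap for every gene.

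Divided by union exon length, which allows levels to be compared between genes, the order in undivided tumours was *Akt1s1*, *Rheb*, *Mlst8*, *Tsc2*, *Mtor*, *Deptor*, *Rptor*, *Rictor* and *Tsc1*. *Akt1s1* stood at a median of 412 normalised counts per kb and *Tsc1* at 22.9. *Akt1s1* exceeded *Rheb* in 23 of 23 undivided tumours. *Rheb* exceeded *Mlst8* in 21 of them. *Mlst8*, *Tsc2*, *Mtor* and *Deptor* lay close together, at medians of 128, 126, 116 and 116 per kb, and each of these neighbours kept its order in only 12 or 13 of 23 tumours. *Deptor* held the third place in major clones, at a median of 136 per kb, and the sixth place in minor clones, at 104 per kb. *Rheb* exceeded *Deptor* in 15 of the 20 major clones. The order depends on the length used: over the longest transcript *Deptor* stood at 141 per kb in major clones and took the sixth place.

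Setting the larger against the smaller clone of each tumour asks how they differ when animal and position are the same. *Deptor* was higher in the major clone in 19 of 20 tumours. The mean difference was 0.45 ± 0.29 on the log2 scale (SD, n = 20), a 1.37-fold difference. The exception was tumour 19 of the female mouse, where the major clone had 1013 and the minor clone 1027 normalised counts. The widest gap, of 1.04, was in tumour 22 of the female mouse, with 1459 against 707, the only tumour whose clones carried different segment labels (SI20 for the major, SI10 for the minor clone).

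The gap was similar in both mice. It was 0.42 ± 0.36 in the female mouse (higher in 9 of 10 tumours) and 0.48 ± 0.22 in the male mouse (10 of 10). By segment, as labelled SI10, SI20 and SI30, it was 0.42 ± 0.28 in 7 tumours of SI10 and 0.41 ± 0.24 in 10 tumours of SI20. In the 2 tumours of SI30 it was 0.43 ± 0.54. Neither the mice nor the segments differed in the gap by limma with Benjamini-Hochberg adjustment: male minus female was 0.06 (SE 0.13, adjusted p = 0.940) and SI20 minus SI10 was -0.01 (SE 0.13, adjusted p = 0.998). No member was called in either comparison, none had an unadjusted p under 0.05, and 0% of the 16428 genes tested were called in each, with 1257 and 669 genes at an unadjusted p under 0.05.

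**Figure D2:**
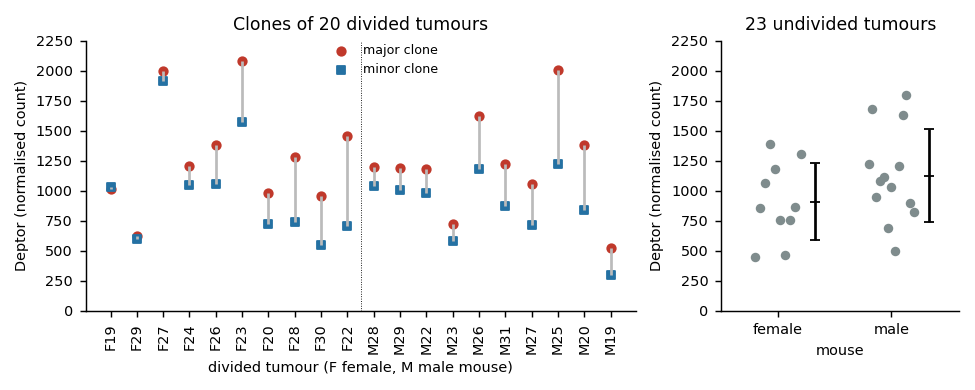
*Deptor* in every library, in normalised counts. Left, the major (circles) and minor (squares) clone of each divided tumour, ordered within each mouse by the log2 gap between them, with the major clone above the minor in 19 of 20 tumours; right, the undivided tumours of each mouse, with mean and SD.

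The other 8 genes showed no gap of that size. Among the subunits, the mean log2 difference (major minus minor, SD over 20 tumours) was 0.00 ± 0.24 for *Mtor*, 0.12 ± 0.38 for *Rptor* and 0.03 ± 0.33 for *Rictor*. It was -0.03 ± 0.30 for *Mlst8* and 0.02 ± 0.16 for *Akt1s1*. Upstream, it was 0.04 ± 0.46 for *Tsc1*, 0.14 ± 0.34 for *Tsc2* and -0.12 ± 0.24 for *Rheb*. Each of these means was smaller than its SD. The major clone was the higher in 15 of 20 tumours for *Tsc2*, in 14 for *Rptor* and in 7 for *Rheb*, and in 10 to 12 for the remaining 5. *Deptor* ranked second by p among the 16428 genes tested, 11 of which had the same direction in at least 19 tumours and 1.14% of which were called at an adjusted p under 0.05. Nothing is read from that rank, since this comparison led to the choice of the gene.

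Cell type marker lists were also examined between the clones. Few of their single genes were called by limma: 1 of 7 goblet, 2 of 7 enteroendocrine and 1 of 9 enterocyte genes, each higher in major clones, and none of the other 9 lists. As list means, goblet cell markers were higher in the major clone in 17 of 20 tumours, by 0.49 ± 0.55 over the 7 genes, each of which was higher on average. Their mean log2 level ranged from 12.6 to 14.2 in major clones and from 10.7 to 13.9 in minor clones. Enteroendocrine markers were higher in 15 of 20 tumours, by 0.63 ± 0.78, with 7 of 7 genes higher on average. Enterocyte markers were also higher in 15 of 20 tumours, by 0.49 ± 0.79, with 9 of 9 genes higher. Fibroblast markers were higher in 13 of 20, by 0.59 ± 1.13, with 6 of 7 genes higher, a mean below its SD. Fibroblast means ranged from 7.202 to 10.6 in major and from 6.44 to 10.8 in minor clones, and of these genes *Lum* was at 0 in 2 of the 63 libraries. Immune markers (0.35 ± 0.51) and epithelial markers (0.19 ± 0.26) were each higher in 16 of 20 tumours, with 8 of 8 genes higher, and smooth muscle markers (0.61 ± 1.11) in 14, with 7 of 7. Tuft (-0.03 ± 0.60), endothelial (-0.01 ± 0.77) and enteric nerve and glia markers (0.03 ± 0.62) had means near 0. Paneth (0.48 ± 0.997) and crypt stem cell markers (0.11 ± 0.42) were each higher in 12 of 20 tumours. On average 6 of 7 Paneth genes were higher, but only 3 of 8 crypt stem cell genes, and the median difference of the crypt stem cell list was -0.11. With the goblet and fibroblast means as covariates, the difference of *Deptor* was 0.35 (SE 0.10). With libraries scaled to equal sums without *Rn18s* the difference of *Deptor* was 0.39 (SE 0.06), and with quantile normalization 0.42 (SE 0.06). The part of the other lists and of the *Rn18s* share in the difference was not tested further.

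*Deptor* was also alike in the clones of a tumour. Across the 20 tumours and with the mean of each mouse removed, its level in the major clone correlated with that in the minor clone at r = 0.87 (Spearman 0.78). Without the 2 tumours farthest from the median r was 0.80. It was 0.79 in the female mouse and 0.93 in the male mouse, and 0.92 in the 7 tumours of SI10 and 0.81 in the 10 of SI20. For the other 8 genes r lay between -0.26 (*Tsc1*) and 0.36 (*Rheb*). Among the 16427 genes examined in this way, the median r was 0.25 and 26 genes, 0.158%, were at or above *Deptor*. These values are a description, because a steady gap between clones and a likeness of clones come from the same pairs.

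Beyond the 9 members, 163 genes of the wider pathway in 8 lists were followed: other complex subunits, amino acid sensing, growth factor and energy input, direct substrates and effectors, turnover of DEPTOR protein, and the ATF4, SREBP and TFEB programmes. Between major and minor clones, 2 of the 163 were called by limma, 1.23% against 1.14% of all genes, so that their number is that of the background. *Dhcr7*, the last enzyme of cholesterol synthesis, was higher in major clones by 0.23 (SE 0.05, adjusted p = 0.0377, higher in 18 of 20 tumours). *Gabarapl1*, which takes part in autophagosome formation, was lower, at -0.28 (SE 0.07, adjusted p = 0.0440, higher in 4 of 20 tumours). The call of *Dhcr7* was lost on leaving out any of 9 of the 20 tumours and that of *Gabarapl1* on leaving out any of 14. Of 8 other settings, *Dhcr7* lost its call in 7, the scalings and the marker covariates among them, and *Gabarapl1* in 5. None of the 7 genes for DEPTOR turnover, among them *Btrc* and *Fbxw11* of its ubiquitin ligase, was called, and the median difference of that list was -0.04, against 0.01 over all genes tested.

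Undivided tumours were set against each class of clone with mouse as a covariate. These comparisons use the major or minor clones of the previous one, and both use the same undivided tumours. No member was called in either. Undivided minus major was -0.30 for *Deptor* (SE 0.16, adjusted p = 0.445) and undivided minus minor was 0.15 (SE 0.17, adjusted p = 0.687), so the undivided tumours lay between the classes without a difference beyond the spread. Their place between the classes is not taken as a sign of mixed clones. By mouse, undivided minus major was -0.52 in the female and -0.10 in the male mouse, and undivided minus minor was -0.10 and 0.38; the mice were not tested against each other here. With the goblet and fibroblast marker means as covariates, undivided minus major for *Deptor* became 0.06 (SE 0.11), and undivided minus minor was 0.16 (SE 0.11).

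*Rheb* had the smallest p among the members, at 0.26 for undivided minus major (SE 0.07, unadjusted p = 0.000867, adjusted p = 0.231 by limma), and was the only member with an unadjusted p under 0.05 in that comparison. It was 0.29 in the female and 0.22 in the male mouse. Against minor clones *Rheb* was 0.13 (SE 0.07, adjusted p = 0.290). *Mtor* was 0.15 against major (SE 0.08, adjusted p = 0.419) and 0.16 against minor clones (SE 0.07, adjusted p = 0.226). Against minor clones *Mtor* was the only member with an unadjusted p under 0.05 in limma, at 0.0400. The remaining 6 genes differed by -0.12 to 0.08 against major clones, and by -0.07 to 0.05 against minor clones. Of all genes tested, 0.0121% were called against major clones and 3.7% against minor clones.

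Of the 163 pathway genes, none was called against major clones (32 had an unadjusted p under 0.05 in limma) and 7 were called against minor clones, 4.29% against 3.7% of all genes. *Sgk1*, a kinase activated by the second complex, was higher in undivided tumours than in minor clones by 0.72 (SE 0.20, adjusted p = 0.0326). *Phlpp2*, a phosphatase of AKT, was higher by 0.56 (SE 0.16, adjusted p = 0.0401), and *Foxo3*, a transcription factor that AKT and SGK1 hold out of the nucleus, by 0.32 (SE 0.08, adjusted p = 0.0266). The fourth higher gene was *Foxo1*. The other 3 were lower. *Scd1*, a fatty acid desaturase, was at -0.62 (SE 0.18, adjusted p = 0.0405). *Pik3r1*, a regulatory subunit of PI3K, was at -0.45 (SE 0.12, adjusted p = 0.0310), and *Nprl3*, of the GATOR1 brake on the first complex, at -0.38 (SE 0.11, adjusted p = 0.0467). Of the 24 direct substrates and effectors 3 were thus higher and none lower, while the median of that list was -0.04, against -0.01 over all genes. The call of *Foxo3* held on leaving out each of the 43 tumours in turn, whereas the call was lost without any of 6 tumours for *Sgk1*, 18 for *Phlpp2*, 17 for *Scd1*, 3 for *Pik3r1* and 26 for *Nprl3*. Of 9 other settings, *Foxo3* lost its call in 2 (equal sums without *Rn18s*, and the female mouse alone), *Sgk1*, *Phlpp2* and *Pik3r1* in 3 each, and *Scd1* and *Nprl3* in 5 each. With the goblet and fibroblast covariates *Sgk1*, *Scd1* and *Nprl3* were not called.

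SI10 was compared with SI20 within undivided tumours (12 and 11) and within divided tumours (7 and 10, as the mean of both clones), with mouse as a covariate. *Deptor* had the largest difference of the 9 genes in divided tumours, at 0.43 higher in SI20 (SE 0.22, adjusted p = 0.375), and 0.25 without tumour 19 of the male mouse. In undivided tumours it was 0.19 (SE 0.22, adjusted p = 0.846). Neither exceeded the spread between tumours. Median *Deptor* was 1047 in SI10 and 899 in SI20 among undivided tumours, 1013 and 1277 among major clones, and 779 and 1043 among minor clones, the clones of tumour 22 of the female mouse included. The male mouse had the larger values, at 0.47 in undivided and 0.65 in divided tumours, against -0.16 and 0.13 in the female mouse.

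None of the 9 genes was called in either kind of tumour, and none had an unadjusted p under 0.05 in limma. The other 8 differed by -0.24 (*Mlst8*) to 0.08 (*Akt1s1*) in undivided tumours, and by -0.16 (*Rheb*) to 0.16 (*Rptor*) in divided tumours. Over all genes, 0.17% were called in undivided and 0.28% in divided tumours. Among pathway genes, none was called in undivided tumours (16 had an unadjusted p under 0.05). In divided tumours *Srebf1*, the transcription factor that drives fatty acid synthesis, was higher in SI20 by 0.44 (SE 0.09, adjusted p = 0.0375), a call that was lost on leaving out any of 14 of the 17 tumours, with quantile normalization and in each mouse alone.

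Between the mice, 2 of the 9 genes were called in undivided and 1 in divided tumours, shares close to those of all genes. In undivided tumours *Rictor* was lower in the male mouse, at -0.40 (SE 0.11, adjusted p = 0.0108). Its normalised counts ran from 470 through 553 to 643 in the female and from 342 through 405 to 664 in the male mouse, so the ranges overlapped. *Mlst8* was higher in the male mouse by 0.48 (SE 0.14, adjusted p = 0.0214), with 456 through 508 to 624 in the female and 478 through 773 to 1389 in the male mouse. With libraries scaled to equal sums without *Rn18s*, *Mlst8* was 0.34 (adjusted p = 0.148) and was no longer called. *Tsc1*, at 0.30 (SE 0.12, adjusted p = 0.0858), gained a call without tumour 2 or 8 of the male mouse and with quantile normalization. Of all genes, 19.1% were called.

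In divided tumours *Tsc2*, which encodes the part of the TSC complex that acts on RHEB, was lower in the male mouse, at -0.43 (SE 0.09, adjusted p = 0.00891). Its minor clones ran from 1109 through 1438 to 2211 in the female and from 927 through 981 to 1318 in the male mouse. Its major clones ran from 1261 through 1528 to 2106 in the female and from 686 through 1216 to 1637 in the male mouse. *Rheb* was 0.25 (SE 0.08, adjusted p = 0.0502) and *Mlst8* was 0.26 (SE 0.09, adjusted p = 0.0593), both just outside the threshold, which *Rheb* passed without tumour 19 or 24 of the female or 25 or 26 of the male mouse. *Mlst8* passed it without tumour 26 of the female or 20 of the male mouse. Both also passed with quantile normalization. *Mtor*, at -0.23 (adjusted p = 0.0718), passed without tumour 20 or 31 of the male mouse and with equal sums, and *Rptor*, at -0.29 (adjusted p = 0.0743), without tumour 20. Of all genes, 13.1% were called.

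*Deptor* went opposite ways in the kinds of tumour, at 0.32 for male minus female in undivided (SE 0.22, adjusted p = 0.313) and -0.35 in divided tumours (SE 0.22, adjusted p = 0.306). The difference between these was 0.67 (SE 0.33, unadjusted p = 0.0458), with an adjusted p of 0.345 by limma. *Tsc1* and *Mtor* also had an unadjusted p under 0.05 for this difference, and none of the 9 was called, against 0.00606% of all genes.

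In the wider pathway, 50 of the 163 genes (30.7%, against 19.1% of all genes) were called in undivided tumours, 17 higher and 33 lower in the male mouse. In divided tumours 40 were called (24.5%, against 13.1%), with 10 higher and 30 lower. The lower genes included 10 of the 24 genes of the SREBP programme, which makes sterols and fatty acids, in both kinds of tumour, with none higher. They also included 9 of the 22 genes of the ATF4 programme of amino acid synthesis and uptake in undivided and 8 in divided tumours, with 2 and 1 higher. The medians of the SREBP list were -0.50 and -0.29, against -0.05 and -0.01 over all genes. *Slc7a5*, a leucine transporter, was at -0.92 in undivided tumours (SE 0.18, adjusted p = 0.00150) and *Slc7a11*, the cystine transporter, at -1.48 (SE 0.43, adjusted p = 0.0185). *Hif1a*, the hypoxia factor, was at -1.16 (SE 0.27, adjusted p = 0.00447).

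Cell type markers also differed between the mice. Enterocyte genes were called higher in the male mouse for 6 of 9 in undivided and 3 of 9 in divided tumours, with list medians of 1.297 and 0.64. Goblet genes were called higher for 3 of 7 in undivided tumours and for none in divided tumours. Lower in the male mouse were 3 of 6 endothelial genes in undivided tumours (median -1.03), and 4 of 8 crypt stem cell genes in divided tumours (median -0.44). The part of these cell types in the pathway differences was not tested.

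Of the 29 genes of amino acid sensing, 6 were called higher and 3 lower in the male mouse in undivided tumours, and 4 higher and none lower in divided tumours. The 3 lower genes, named after their values were seen, were *Mios* (-0.48) and *Wdr59* (-0.42), of the GATOR2 complex, and *Rraga* (-0.35), a Rag GTPase. *Rragd*, another Rag GTPase, of the group that brings the first complex to the lysosome, was higher by 1.62 in undivided tumours (SE 0.33, adjusted p = 0.00169). *Sesn1*, an inhibitor of that step, was higher by 1.32 in undivided (SE 0.18, adjusted p = 4.88e-05) and by 0.56 in divided tumours (SE 0.15, adjusted p = 0.0220). *Phlpp2* was higher by 1.12 in undivided tumours (SE 0.19, adjusted p = 0.000315). In divided tumours *Rhebl1*, the homologue of *Rheb*, was higher by 0.92 (SE 0.20, adjusted p = 0.00720) and *Gabarapl1* by 0.56 (SE 0.12, adjusted p = 0.00722). *Aldh1l2*, a mitochondrial folate enzyme, was at -1.04 (SE 0.21, adjusted p = 0.00524) and *Sgk1* at -0.98 (SE 0.25, adjusted p = 0.0170). *Gpnmb*, a lysosomal glycoprotein, was at -1.04 (SE 0.33, adjusted p = 0.0475), a call lost without any of 11 of the 17 tumours, without the filter and with quantile normalization. The call of *Sesn1* in divided tumours was lost without tumour 20 of the female mouse.

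**Figure D3:**
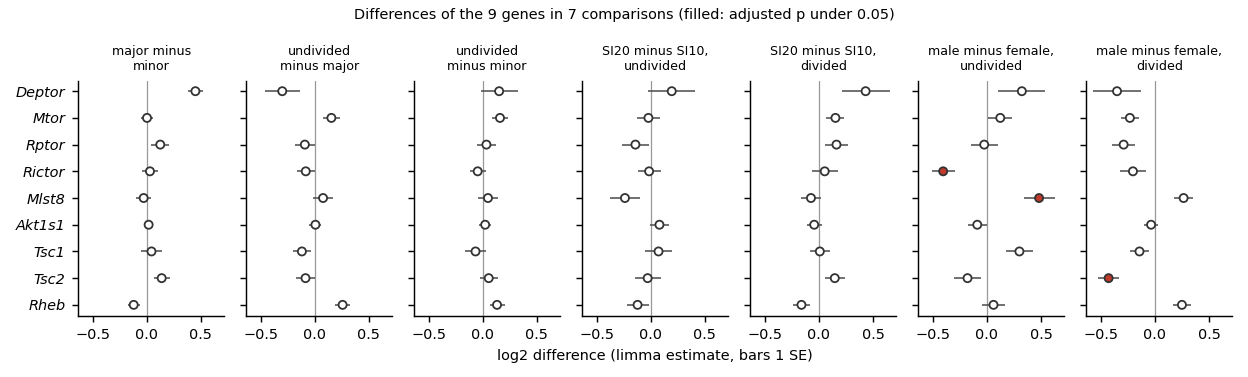
Log2 differences of the 9 genes in 7 comparisons, with bars of 1 SE. Filled points have an adjusted p under 0.05 (*Rictor* and *Mlst8* between mice in undivided tumours, *Tsc2* between mice in divided tumours); no p was used for major minus minor, where *Deptor* stands at 0.45.

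Whether *Deptor* varied with its partners was asked over the 23 undivided tumours and, apart from them, over the mean of both clones in the 20 divided tumours. Mouse means were removed, p came from 100000 two-sided permutations within mice, and the adjustment covered the 20 relations of each set. *Rheb* was lower where *Deptor* was higher in both sets, though values of this size were common: 9.11% of all genes had r below -0.5 with *Deptor* in undivided and 19.8% in divided tumours, and 22.9% had r above 0.5 in divided tumours. In undivided tumours r was -0.66 (Spearman -0.69), with adjusted permutation p of 0.00580 and 0.00850. Without the 2 tumours farthest from the median of *Rheb* r was -0.64, and it was -0.60 in the female and -0.70 in the male mouse. In divided tumours r was -0.57 (Spearman -0.57), with adjusted permutation p of 0.0228 and 0.0300, and r was -0.46 without the 2 farthest tumours. There the male mouse had -0.85 and the female -0.16, a contrast that was not tested.

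No other member passed in both sets. *Tsc1* correlated with *Deptor* in divided tumours, at r = 0.62 (Spearman 0.65, adjusted permutation p = 0.0134 and 0.0103), with 0.48 without the 2 farthest tumours, 0.83 in the female and 0.40 in the male mouse. With equal sums without *Rn18s* it was 0.47 (adjusted permutation p = 0.0732) and no longer passed. In undivided tumours r for *Tsc1* was 0.27 (adjusted permutation p = 0.30). *Akt1s1* passed by rank alone in divided tumours, at Spearman -0.61 (adjusted permutation p = 0.0164) and r of -0.48 (adjusted permutation p = 0.0667), while r was 0.24 in undivided tumours. *Mlst8* was at -0.37 in undivided and -0.53 in divided tumours, and the latter was -0.02 without the 2 farthest tumours. With quantile normalization *Mlst8* (-0.58) and *Akt1s1* (-0.58) passed in divided tumours, with adjusted permutation p of 0.0271 and 0.0202. *Mtor*, *Rptor* and *Rictor* lay between -0.05 and 0.06 in undivided and between 0.40 and 0.43 in divided tumours, and *Tsc2* at 0.28 and 0.50, none of them past the threshold.

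**Figure D4:**
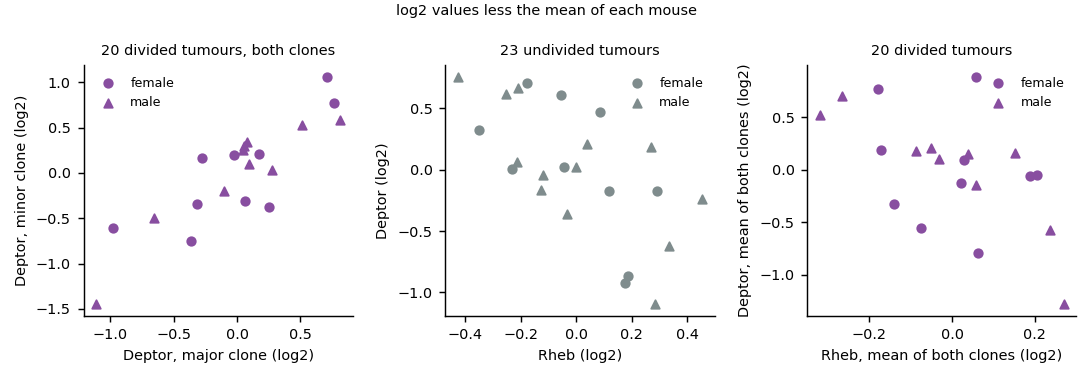
Log2 values less the mean of each mouse (circles female, triangles male). Left, *Deptor* in the major against the minor clone of 20 divided tumours (r = 0.87); middle and right, *Deptor* against *Rheb* in 23 undivided tumours (r = -0.66) and in 20 divided tumours, as the mean of both clones (r = -0.57).

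Cell type markers moved with *Deptor* across tumours as well. In undivided tumours r was 0.69 for fibroblast markers (Spearman 0.66, adjusted permutation p = 0.00320 and 0.00850), and 0.67 for goblet markers (Spearman 0.57, adjusted permutation p = 0.00580 and 0.0183). In divided tumours these were 0.80 (Spearman 0.74) and 0.78 (Spearman 0.70), with adjusted permutation p of 0.000800 and 0.00405 for fibroblast and 0.00147 and 0.00405 for goblet markers. Fibroblast markers kept r = 0.71 and 0.78 without the 2 farthest tumours, with 0.91 and 0.81 in the female and 0.67 and 0.80 in the male mouse. Goblet markers kept 0.57 and 0.56, with 0.74 and 0.56 in the female and 0.60 and 0.93 in the male mouse. Enterocyte (0.66 and 0.66), smooth muscle (0.61 and 0.74) and enteric nerve and glia markers (0.63 and 0.78) also passed in both sets by Pearson's r, though enterocyte markers missed the threshold by rank in undivided tumours (Spearman 0.38, adjusted permutation p = 0.154). Tuft (0.54 and 0.63) and endothelial markers (0.48 and 0.63) passed in both sets too by Pearson's r. The adjusted permutation p were 0.0256 and 0.0198 for tuft and 0.0427 and 0.0136 for endothelial markers. By rank, endothelial markers missed the threshold in both sets (Spearman 0.43 and 0.37, adjusted permutation p = 0.1096 and 0.1501). Tuft markers passed by rank in undivided tumours (Spearman 0.57, adjusted permutation p = 0.0183). They missed the threshold by rank in divided tumours (Spearman 0.48, adjusted permutation p = 0.0681). Neither list passed by Pearson's r in undivided tumours with quantile normalization. Without the 2 farthest tumours, r was 0.23 for tuft and 0.29 for endothelial markers in divided tumours. Among nerve and glia genes *Sox10*, *Gfap* and *Elavl4* were at 0 in 38, 34 and 32 of the 63 libraries. Epithelial markers had r of 0.12 and 0.39 and did not pass. Crypt stem cell markers were at 0.62 and 0.22, and the sets were not tested against each other. The part of these cell types in the relation of *Deptor* with *Rheb* was not tested.

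The 10 genes most like *Deptor* were taken from the 16510 genes of the undivided tumours by Pearson's r, and their relation was then measured in the divided tumours. Most alike were *Fgf1*, a fibroblast growth factor (r = 0.90), *Cpeb3*, a translational regulator (0.89), *Smpd1*, the lysosomal sphingomyelinase (0.88), *Os9*, a lectin of protein quality control in the endoplasmic reticulum (0.88), and *Bcas1* (0.87). Most opposed were *Snx5*, a sorting nexin (-0.89), *Prmt3*, an arginine methyltransferase (-0.88), *Ptges3*, a co-chaperone of HSP90 (-0.87), *Agpat5*, an acyltransferase (-0.87), and *Riok2*, a kinase of ribosome assembly (-0.87). Over all these genes, 5% lay below -0.59 and 5% above 0.58.

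In the divided tumours each of the 10 kept its sign. The values were 0.85 for *Fgf1*, 0.81 for *Cpeb3*, 0.78 for *Smpd1*, 0.90 for *Os9* and 0.86 for *Bcas1*. They were -0.92 for *Snx5*, -0.83 for *Prmt3*, -0.87 for *Ptges3*, -0.86 for *Agpat5* and -0.91 for *Riok2*. The adjusted permutation p over the 10 relations were 2.5e-05 to 0.000160 (Pearson) and 4e-05 to 0.000420 (Spearman), and without the 2 farthest tumours the values lay between 0.60 and 0.84 or between -0.71 and -0.86. The background was wide in this set too, with 5% of genes below -0.79 and 5% above 0.75. Across 16508 genes, the r with *Deptor* in undivided tumours correlated with that in divided tumours at 0.81. Keeping the sign is therefore common among genes at either end and not particular to these 10. Of the 10, *Os9* was called between clones, at 0.20 (SE 0.05, adjusted p = 0.0375, higher in the major clone in 17 of 20 tumours), and the other 9 were not.

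**Figure D5:**
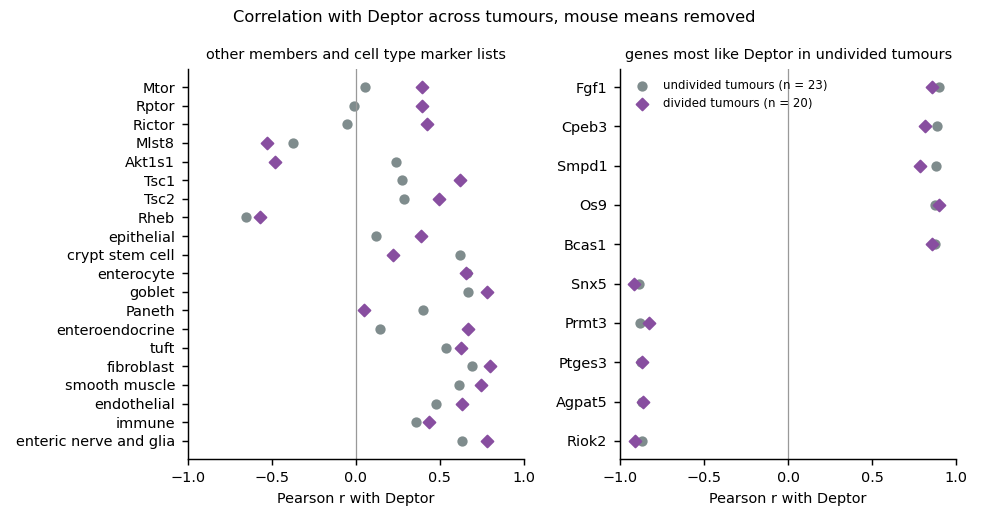
Pearson's r with *Deptor* across 23 undivided tumours (circles) and 20 divided tumours (diamonds), mouse means removed. Left, the 8 other members and 12 marker lists, with *Rheb* the most negative in both sets; right, the 10 genes chosen in the undivided tumours, all on the same side in the divided tumours.

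RefSeq promoters (GRCm38.p6 table, 250 bases before each gene start) were matched by symbol for 8 of the 9 members, all but *Deptor*. They were searched for the E-box, letters CACGTG, which reads the same on both strands and is the core that MYC and the lysosomal factor TFEB bind. The E-box was present in 6.02% of the 32851 promoters searched, which left out those of 1 chromosome. It was present in 1 of the 8 members, *Rheb*, the member that opposed *Deptor*. Of the genes most like *Deptor*, it was present in 2 of the 4 opposed genes with a promoter searched (*Snx5* and *Prmt3*) and in none of the 3 alike genes with a promoter searched. The 3 windows are shown because they hold the only matches, with the E-box in capitals; the search was chosen after the correlations were known, and a match says nothing about binding.
Rheb: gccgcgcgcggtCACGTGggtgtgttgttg
Snx5: gcactgggggagCACGTGgcgtgccgctcg
Prmt3: gccccctacgccCACGTGacccgga

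On GRCm39 the *Rheb* window lies at chr5:25047438-25047467 on the minus strand, with its E-box starting 96 bases before the RefSeq gene start. That of *Snx5* lies at chr2:144112525-144112554 on the minus strand (50 bases before), and that of *Prmt3* at chr7:49428081-49428105 on the plus strand (13 bases before). In the Gencode M39 annotation, which holds longer transcripts, the 3 windows fall in the 5′ untranslated exon of 11, 18 and 19 transcripts of their own gene, and in no coding exon of it. The *Rheb* window also lies in *Gm71447* and *Gm71450*, and that of *Snx5* in *Mgme1*.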

How the data were processed

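Polyadenylated RNA of 63 pieces of tumour was sequenced from both ends with a stranded kit. As deposited by the authors, the values are a signal per gene: reads trimmed with Trimmomatic 0.39, gene counts estimated with Salmon 1.9.0 against Gencode M30 and scaled between libraries, without a stated method beyond the name normalised counts. They are not whole, so no count model was used.

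Major and minor classes came from the study's source data, by sample name, and clones were paired by tumour; labels without a clone letter gave the undivided tumours. Every gene whose mean reached 10 entered limma 3.58.1 (R 4.3.3, moderated with a trend) on log2(value + 1), on which scale all differences are given, with Benjamini-Hochberg adjustment over all genes and a threshold of 0.05. Tumour was a block between clones. Fold changes of low genes are understated on this scale. Correlations used Python 3.11.15 and numpy 2.4.6. Positions are from Gencode M39 on GRCm39.

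The members and lists were chosen with earlier results of these data known. Named were the 9 members, up to 3 pathway genes each way per comparison by size among those called, the 5 genes each way most correlated with *Deptor*, and markers; *Foxo1*, *Btrc*, *Fbxw11*, *Mios*, *Wdr59* and *Rraga* were named after their values were seen. On simulated data with 200 genes changed by a log2 of 1, the tests recovered 82.5% of them between clones, 77% between undivided tumours and minor clones, and 66% between segments, and with nothing changed they called 0. Smaller changes, such as all those of the members, were not simulated, so their recovery is not known. Alternatives covered the pseudocount, filter, scaling, block, covariates, mice and each tumour left out.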

Additional observations from a re-analysis of the deposited data

Results flagged for a closer look

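In the male mouse, the smaller clone of tumour 19 had 298 normalised counts of *Deptor*, the lowest of the 63 libraries, and stood apart from the other 9 minor clones of that mouse, of which the next lowest had 577. On the log2 scale the gap was 0.467 of the range of the 10 libraries, just past the cutoff used for groups of that size. Of 45 groups of 10 libraries examined in this way for the 9 genes, 1 held such a library, and chance gives about 1 in 20. Without that tumour, the segment difference of *Deptor* in divided tumours was 0.25 in place of 0.43.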

How the results depend on the processing

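Of 2682 alternative values for the 81 tested values of the members, 2659 kept their side of the threshold without turning sign from a value above its SE. Another 7 kept their side but turned sign from such a value. Sign changes of any size, most of them from a value within its SE, numbered 60 on leaving out 1 tumour and 49 under the other settings. Those that turned sign, from a value above its SE, were *Deptor* in undivided minus major with goblet and fibroblast means as covariates (0.0621), *Mtor* between mice in undivided tumours with equal sums (-0.0193), and, in the female mouse alone, *Mtor* in undivided minus major (-0.00644) and minus minor (-0.0519), *Rictor* in the clone gap by segment (-0.0133), and *Tsc2* (-0.00484) and *Rheb* (0.0218) between segments in divided tumours. *Mlst8* between mice lost its call with equal sums (0.34). A call was gained by 15 values, all between mice: 4 under another scaling (*Tsc1* in undivided tumours and *Mlst8* and *Rheb* in divided tumours with quantile normalization, *Mtor* in divided tumours with equal sums), and the others on leaving out 1 tumour. The cause was not tested. The covariates and the clone correlation under other scalings were chosen after seeing the data. With the replicate block of tumour removed, the clone difference of *Deptor* stayed at 0.45 with an SE of 0.17 in place of 0.07, and 1 gene was called in place of 188.

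Genes called between clones numbered 85 without the filter, 344 with quantile normalization, 601 with equal sums, 0 in the female and 33 in the male mouse, and 0 with the covariates. Higher against lower was 110 to 78, 133 to 211 with quantile normalization and 166 to 435 with equal sums. For undivided against minor it was 375 to 235, and 263 to 628 with equal sums, and between mice in undivided tumours 1697 to 1457 and 1081 to 2506. Against major clones 2 genes were called, 1 with quantile normalization, 8 with the covariates, and 0 without the filter, with equal sums, with segment as a covariate, with 20 undivided tumours and in each mouse. Against minor clones 610 became 323 with segment as a covariate and 0 in the female mouse. Between segments in undivided tumours 28 became 18 with a pseudocount of 0.1, 0 with 20 tumours, 0 in the female and 46 in the male mouse, and in divided tumours 46 became 0 and 6. The 1 gene whose mouse difference varied with the kind of tumour became 0 without the filter and under both scalings.

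Leaving out 1 tumour at a time gave 25 to 859 genes between clones, 0 to 25 against major and 274 to 959 against minor clones, 5 to 53 and 13 to 215 between segments in undivided and divided tumours, 2307 to 3654 and 1242 to 2680 between mice, 0 to 1 and 0 to 0 for the clone gap by mouse and segment, and 0 to 119 for the mouse difference by kind of tumour. *Deptor* between clones ran from 0.42 to 0.47 on leaving out 1 tumour. Under the other settings it was lower with equal sums (0.39) and with the covariates (0.35).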
